A study of Homo sapiens with 6 samples.

Results

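Claudins are the membrane proteins that build tight junction strands between epithelial cells, and 10 claudin genes, CLDN1, CLDN2, CLDN3, CLDN4, CLDN6, CLDN7, CLDN9, CLDN12, CLDN18 and CLDN23, were followed here in a human gastric cancer line after knockdown of the splicing factor SRSF2. The members were taken by gene name from a table of 56303 gene entries. Each of the 10 names matched 1 entry, and 14 further claudin genes in the table, of 24 in all, were described as a separate list. After SRSF2 knockdown CLDN7, CLDN4 and CLDN18 were higher, CLDN12 was lower, and the other 6 members stayed under 1 CPM (counts scaled to a library size of 1000000) in every library.

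The study sequenced RNA of AGS cells, an established line from a human gastric adenocarcinoma, in 6 libraries. The WT group held 3 libraries of AGS cells with the genotype label WT, and the siSRSF2 group held 3 libraries of AGS cells given a small interfering RNA against SRSF2, labelled as SRSF2 knockdown. A control siRNA in the WT cells, the length of treatment and separate cultures for replicates are not named in the labels. P-values therefore measure only the spread between these libraries, which may be technical. All 6 libraries share the cell line and the growth medium, and the line is the only model used.

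A claudin crosses the membrane 4 times, and its extracellular loops meet those of claudins on the neighbouring cell. Some claudins, such as CLDN1, CLDN3, CLDN4 and CLDN18, are known mainly for sealing the space between cells, whereas CLDN2 forms a channel for small cations and water. The cytoplasmic tail of most claudins ends in a motif that binds the PDZ domains of the zonula occludens scaffold proteins, such as those encoded by TJP1 and TJP3, which tie the strands to actin. In the stomach CLDN18 is the claudin of the gastric lineage, made from a first exon of its own that differs from the one used in lung.

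SRSF2 itself had 2122, 2118 and 2093 counts in the WT libraries and 586, 840 and 861 counts in the siSRSF2 libraries. The groups did not overlap, and the mean fell from 45.0 ± 1.19 to 22.7 ± 1.83 CPM (SD, n = 3 each), a log2 fold change of -0.98 with an SE of 0.064 (edgeR quasi-likelihood F test, Benjamini-Hochberg adjusted p = 4.39e-13). The WT libraries held 47518943 to 50021152 counts each and the siSRSF2 libraries 26610937 to 36651623, so 3 counts stood for 0.0630 to 0.110 CPM. CPM values were scaled for library composition with TMM, the trimmed mean of M-values. Of 23689 genes tested, 13991 passed the adjusted p threshold of 0.05, 7129 higher and 6862 lower in siSRSF2 libraries. The epithelial keratins KRT8 and KRT18 were abundant, at 2680 to 3387 and 990.3 to 1149 CPM over the 6 libraries, while CDH1, which encodes E-cadherin, was at 0.153 to 0.442 CPM. Of 11 gastric markers, 7 were too low to be tested, among them TFF1, TFF2, GKN1 and GKN2. Of these, TFF1, GKN1 and GKN2 are defining genes of gastric surface cells.

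CLDN7 changed most among the claudins. It encodes a claudin found widely in epithelia, where it binds EPCAM and also sits along the lateral membrane. Its entry covers 2492 exon bases in 5 exons on the minus strand of chromosome 17 (7259903 to 7263983, GRCh38), and coding sequence lies in all but the first. It had 77, 76 and 87 counts in the WT libraries and 279, 400 and 329 counts in the siSRSF2 libraries. Scaled to depth, these were 1.62, 1.66 and 1.83 CPM in WT and 10.3, 10.4 and 9.50 CPM in siSRSF2 libraries. All 3 siSRSF2 libraries stood far above the highest WT library and close to each other. The mean CPM rose 5.90-fold, from 1.70 ± 0.114 to 10.05 ± 0.481 (SD, n = 3 each), a log2 fold change of 2.56 with an SE of 0.13 and a 95% interval of 2.29 to 2.83 (edgeR, adjusted p = 3.13e-15). Across the table, 30.1% of genes tested passed the threshold in this direction, and 493 of them, 2.08% of all genes tested, had a larger rise than CLDN7.

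CLDN4 came next. It encodes a sealing claudin of many epithelia and, with CLDN3, a receptor for an enterotoxin of Clostridium perfringens. The gene lies on the plus strand of chromosome 7 (73799542 to 73832693, GRCh38), with 4702 exon bases and its whole coding sequence in 1 exon. It had 84, 68 and 52 counts in WT libraries, or 1.76, 1.49 and 1.10 CPM. In siSRSF2 libraries it had 105, 212 and 194 counts, or 3.86, 5.50 and 5.60 CPM. The groups did not overlap, although siSRSF2 replicate 1, the shallowest library, lay below the other two of its group. The mean rose 3.44-fold, from 1.45 ± 0.335 to 4.99 ± 0.974 CPM (SD, n = 3 each), with a log2 fold change of 1.79, an SE of 0.19 and a 95% interval of 1.41 to 2.18 (edgeR, adjusted p = 4.85e-09).

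CLDN18, the gastric claudin, was low in this line and rose too. Its entry lies on the plus strand of chromosome 3 (137998735 to 138033655, GRCh38) and has 6 exons over 3880 bases. Both of its coding transcripts have 5 exons, with different first exons, and a count per gene adds them together, so the stomach and lung forms were not separated. It had 33, 38 and 32 counts in WT libraries, or 0.693, 0.832 and 0.674 CPM. In siSRSF2 libraries it had 41, 100 and 100 counts, or 1.51, 2.59 and 2.89 CPM. Every siSRSF2 library was above every WT library, with replicate 1 again the lowest of its group. The mean rose 3.18-fold, from 0.733 ± 0.0860 to 2.33 ± 0.726 CPM (SD, n = 3 each), with a log2 fold change of 1.68, an SE of 0.25 and a 95% interval of 1.16 to 2.20 (edgeR, adjusted p = 2.21e-06).

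CLDN12 moved the other way. It is a broadly expressed claudin that is described in permeability to calcium and, unlike most of the family, lacks the usual PDZ-binding end. It lies on the plus strand of chromosome 7 (90383721 to 90513402, GRCh38), with 6741 exon bases in 17 merged exons, of which 62.8% belong to coding transcripts. It had 731, 702 and 743 counts in WT libraries, or 15.3, 15.4 and 15.7 CPM. In siSRSF2 libraries it had 272, 496 and 393 counts, or 10.01, 12.9 and 11.3 CPM. The WT libraries were nearly equal and all stood above the siSRSF2 libraries. The mean fell 1.35-fold, from 15.5 ± 0.177 to 11.4 ± 1.43 CPM (SD, n = 3 each), a log2 fold change of -0.43 with an SE of 0.089 and a 95% interval of -0.61 to -0.25 (edgeR, adjusted p = 0.000159). Among all genes tested, 29.0% passed the threshold in this direction, and 4757 of them, 20.1% of genes tested, fell by more than CLDN12.

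**Figure D1:**
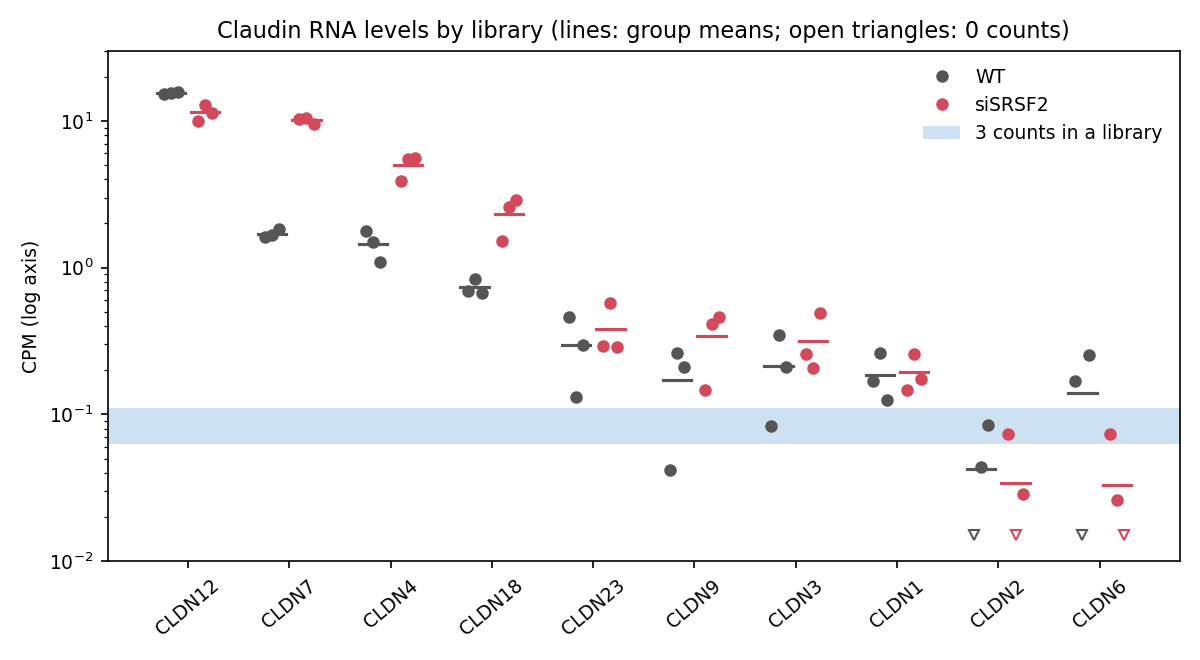
CPM of the 10 claudin genes on a log axis, with 1 point per library, grey for WT and red for siSRSF2, and a line at each group mean. Open triangles mark libraries with 0 counts and the blue band shows the CPM of 3 counts; CLDN7, CLDN4 and CLDN18 stand higher in all 3 siSRSF2 libraries and CLDN12 lower, while the groups of the other genes overlap.

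The remaining members were low. CLDN3, the close relative and neighbour of CLDN4, had 4, 16 and 10 counts in WT and 7, 8 and 17 counts in siSRSF2 libraries, and the groups overlapped. Its log2 fold change was 0.57 with an SE of 0.55 and a 95% interval of -0.56 to 1.70 (edgeR, adjusted p = 0.392). CLDN9, a claudin known from the inner ear, had 2, 12 and 10 counts in WT and 4, 16 and 16 counts in siSRSF2 libraries, again with overlap. Its log2 fold change was 1.03 with an SE of 0.58 and a 95% interval of -0.16 to 2.21 (edgeR, adjusted p = 0.131). CLDN23 had 22, 6 and 14 counts in WT and 8, 22 and 10 counts in siSRSF2 libraries, with a log2 fold change of 0.40, an SE of 0.49 and a 95% interval of -0.61 to 1.41 (edgeR, adjusted p = 0.513). For these 3 genes a change was not detectable at this depth, and the intervals still hold changes as large as that of CLDN12 in either direction for CLDN3 and CLDN23.

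CLDN1, CLDN2 and CLDN6 did not pass the filter on low counts and were not tested. CLDN1, the main sealing claudin of skin, had 8, 12 and 6 counts in WT and 4, 10 and 6 counts in siSRSF2 libraries. CLDN2, the cation channel claudin, had 0, 2 and 4 counts in WT and 2, 0 and 1 counts in siSRSF2 libraries. CLDN6, a claudin of embryonic epithelia that is reactivated in some tumours, had 8, 0 and 12 counts in WT and 2, 1 and 0 counts in siSRSF2 libraries. With no filter its log2 fold change was -2.16 with an SE of 1.15 (edgeR, adjusted p = 0.160), and the groups overlapped through WT replicate 2.

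In all, 4 of the 10 members were called, 3 higher and 1 lower, 3 were tested and not called, and 3 were not tested. Among all genes tested 59.1% were called, so the share of members called was not above that of the table. The groups did not overlap for the same 4 members, against 63.8% of all genes tested. The sign and call of all 4 held under each of 16 alternative settings.

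Compared per length of exon, as CPM per kilobase (kb), the order of the 10 members differed between the groups. Among them, in WT cells CLDN12 led at 2.29 ± 0.0262 CPM per kb, followed by CLDN7 at 0.684 ± 0.0459, CLDN4 at 0.308 ± 0.0713 and CLDN18 at 0.189 ± 0.0222 (SD, n = 3). Library ranges separated CLDN12 from CLDN7, CLDN7 from CLDN4 and CLDN4 from CLDN18. Below them came CLDN3 at 0.169, CLDN23 at 0.136, CLDN9 at 0.0838, CLDN6 at 0.0807, CLDN1 at 0.0507 and CLDN2 at 0.0125 CPM per kb. From CLDN18 down to CLDN1 each gene's range overlapped that of the next, so this stretch of the order was not resolved, and CLDN2 lay below CLDN1.

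Among the 10 members in siSRSF2 cells, CLDN7 led at 4.03 ± 0.193 CPM per kb, ahead of CLDN12 at 1.69 ± 0.212, CLDN4 at 1.06 ± 0.207 and CLDN18 at 0.601 ± 0.187 (SD, n = 3). Ranges of neighbours did not overlap for these genes, nor between CLDN18 and CLDN3 at 0.250 CPM per kb. CLDN3, CLDN23 at 0.177 and CLDN9 at 0.167 CPM per kb overlapped, as did CLDN1 at 0.0528, CLDN6 at 0.0191 and CLDN2 at 0.0100 CPM per kb, and CLDN9 lay above CLDN1. Summed over the 10 members, the level was 3.92, 4.03 and 4.07 CPM per kb in WT libraries and 7.33, 8.63 and 8.23 CPM per kb in siSRSF2 libraries. The sum was higher in every siSRSF2 library, 8.06 ± 0.664 against 4.01 ± 0.0793 CPM per kb (SD, n = 3). The size of this rise depends on the lengths used. Without length, the summed CPM was 20.3 to 20.4 in WT and 26.6 to 32.8 in siSRSF2 libraries, a smaller rise.

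Shares were taken of the summed level of the 10 members, without the other claudin genes. By counts per kb, CLDN12 held 58.1%, 56.6% and 57.0% of that sum in WT libraries and 20.3%, 22.1% and 20.5% in siSRSF2 libraries. CLDN7 held 16.5%, 16.6% and 18.1% in WT and 56.2%, 48.3% and 46.3% in siSRSF2 libraries. CLDN4 held 9.57%, 7.86% and 5.72% in WT and 11.2%, 13.6% and 14.5% in siSRSF2 libraries. None of these 3 genes' groups overlapped, and an exact two-sided permutation test gave p = 0.1 for each, the smallest value that 3 against 3 libraries allow. CLDN18 held 4.55%, 5.32% and 4.27% in WT and 5.31%, 7.75% and 9.04% in siSRSF2 libraries, with overlap (exact permutation p = 0.2). By raw counts, and with the longest coding transcript as length, its groups did not overlap (exact permutation p = 0.1 for each), at 3.59 ± 0.422% against 7.65 ± 1.87% and 3.30 ± 0.391% against 5.98 ± 1.58% (SD, n = 3). The other 6 members together held 11.3% to 14.9% in WT and 7.01% to 9.71% in siSRSF2 libraries. These shares depend on each other, since they add up to the whole, and on the length used. By raw counts CLDN7 held 8.36 ± 0.540% in WT and 33.7 ± 4.23% with the siRNA (SD, n = 3), and CLDN12 held 75.8 ± 0.705% and 37.9 ± 1.2%, so by raw counts CLDN12 still led in 2 of the 3 siSRSF2 libraries.

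**Figure D2:**
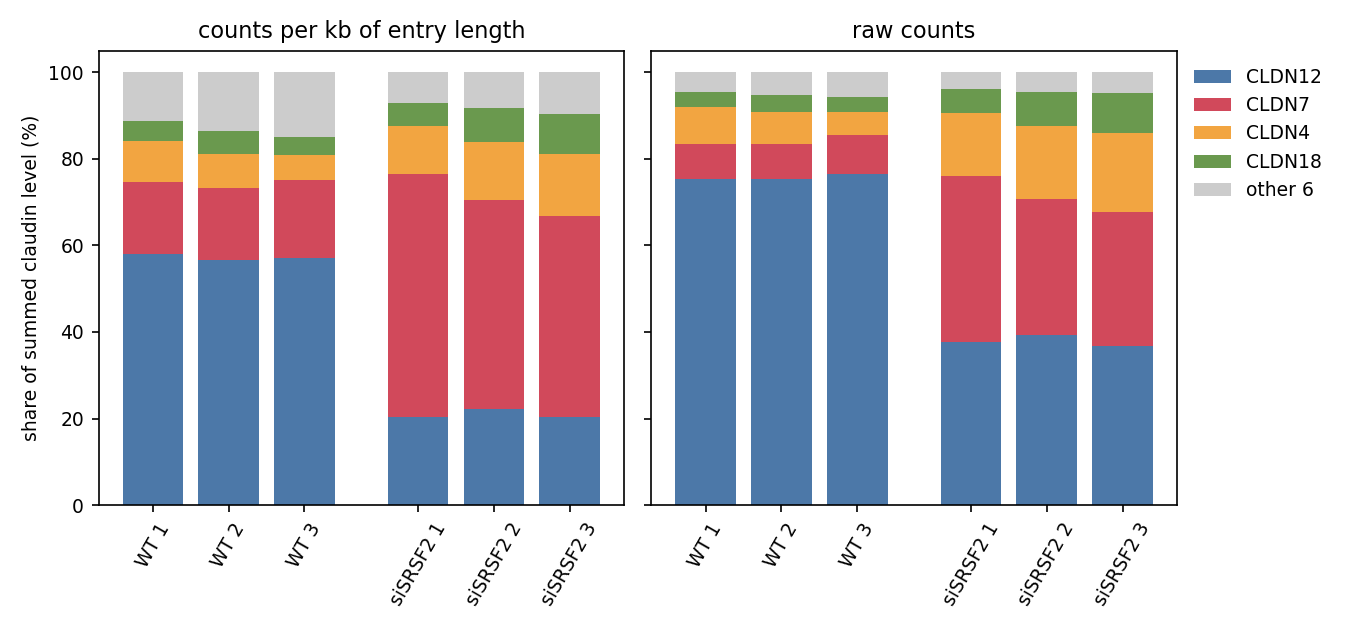
Share of each claudin in the summed level of the 10 members in a library, in percent, as stacked bars for the 6 libraries, by counts per kb on the left and by raw counts on the right. By counts per kb CLDN12 makes up 56.6% to 58.1% of the WT bars and CLDN7 46.3% to 56.2% of the siSRSF2 bars, and by raw counts CLDN12 stays the larger or near-equal part.

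Because CLDN7 and CLDN12 led the groups, their ratio was taken per library, a choice made after their values were seen. The log2 ratio of CLDN7 to CLDN12 counts was -3.17 ± 0.0786 in WT and -0.18 ± 0.186 with the siRNA (SD, n = 3), a difference of 3.0 (exact permutation p = 0.1, the smallest possible). This ratio does not depend on how the libraries were scaled.

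The 2 pairs of neighbouring claudin genes were compared in the same way. CLDN3 and CLDN4 lie side by side on chromosome 7, and their log2 count ratio was -2.87 ± 1.19 in WT and -3.98 ± 0.602 in siSRSF2 libraries, a difference of -1.11 (SD, n = 3, exact permutation p = 0.3). CLDN6 and CLDN9 lie side by side on chromosome 16, and their log2 count ratio was -0.88 ± 3.35 in WT and -3.12 ± 2.12 in siSRSF2 libraries, a difference of -2.24 (SD, n = 3, exact permutation p = 0.4). Both pairs had library values that overlapped between the groups, so a different response of the neighbours was not detectable at the counts of CLDN3, CLDN6 and CLDN9.

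The annotation bears on what each count holds. CLDN7 shares 269 of its exon bases, 10.8%, on the same strand with RP1-4G17.5, named AC003688.1 in GENCODE 29, and 38 bases with ELP5 on the opposite strand. RP1-4G17.5 had 964, 903 and 995 counts in WT and 438, 725 and 515 counts in siSRSF2 libraries, a mean of 20.3 ± 0.608 against 16.6 ± 2.02 CPM (SD, n = 3) and a log2 fold change of -0.29 with an SE of 0.081. ELP5 had a log2 fold change of -0.73. Both entries were lower, and the part of their overlaps in the CLDN7 result was not tested. CLDN12 shares 347 bases with GTPBP10 and 201 with CDK14, whose log2 fold changes were -1.02 and -0.57, both in the direction of CLDN12. It also shares 371 bases with CTB-13L3.1, which lies wholly within its exons and was not called at -0.53, and 276 bases with AC006153.3, which was too low to be tested. The part of these overlaps in the CLDN12 result was not tested. CLDN6 shares 40 bases on the opposite strand with TNFRSF12A, which went from 43.4 to 6.67 CPM, and CLDN2 shares 341 bases with RIPPLY1. Since no source used here gives the strand setting, reads of such overlaps cannot be assigned.

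CLDN4, CLDN18, CLDN1, CLDN3, CLDN9 and CLDN23 share no exon base with another entry. Of all stretches of 50 bases, 0.612% in CLDN4 and 1.80% in CLDN3 also occur in transcripts of other genes, in part in each other, and 0% in CLDN18. CLDN6 and CLDN9 share such stretches too. In CLDN9 they number 25, or 1.25%, all found in CLDN6. In CLDN6 139 stretches, or 8.01%, occur elsewhere, in AL353807.1 as well as in CLDN9. In CLDN7 the 8.25% fall in AC003688.1. In CLDN12 the share was 12.6%.

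**Figure D3:**
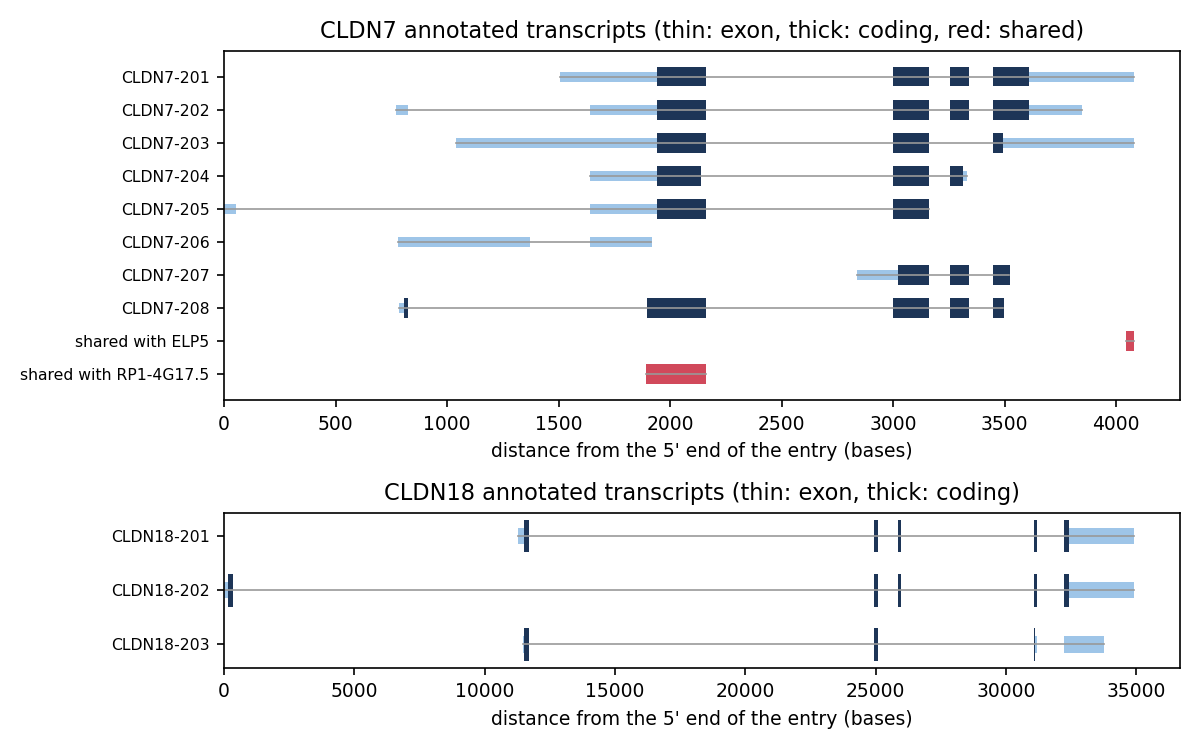
Annotated transcripts of CLDN7 (top) and CLDN18 (bottom) by distance in bases from the 5' end of the entry, with exons thin, coding parts thick and, in red, the CLDN7 bases shared with other entries. The 269 bases shared with RP1-4G17.5 fall on the first large coding exon of CLDN7, the 38 shared with ELP5 at its 3' end, and the CLDN18 transcripts begin at separate first exons.

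Promoter sequence was read for the claudins from RefSeq windows of 300 bases (GRCh38.p14, 250 bases before to 50 after a transcript start), which held 11 windows for 8 of the 10 members. A set of 3 motifs was searched on both strands, a choice made with the changes known. CAGGTG, read as CACCTG on the other strand, is the E-box form bound by SNAI and ZEB repressors, which are known to silence claudin genes. It occurs in 20.6% of 34943 distinct windows, and 0.0916% of windows, 32 in number, hold at least 5. That cut was taken from the claudin window with the most matches, so the share is a description and not a test of rarity. The window of the inner CLDN7 start (7262478) held 5, shown here in order along the gene, as the minus strand reads, with the motif in capitals.

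CLDN7, chr17:7262637-7262662: tcttcctcctCACCTGggcaaggagg
CLDN7, chr17:7262598-7262623: acttccggttCAGGTGagtgtccctt
CLDN7, chr17:7262483-7262508: tacatatactCAGGTGcgccccacct
CLDN7, chr17:7262472-7262497: aggtgcgcccCACCTGtccgcccgca
CLDN7, chr17:7262458-7262483: tgtccgcccgCACCTGctggctcacc

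The matches begin at -174, -135, -20, -9 and 5 bases from that start, which is counted as 0, and all 5 lie within annotated CLDN7 exons, since other transcripts begin further upstream. The window of the upstream CLDN7 start (7263213) held none. CLDN18, CLDN3 and CLDN6 had 1 match each, and CLDN4 and CLDN12 had none. A match describes letters only, and no binding was measured.

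TGANTCA, the site of AP-1 factors, occurs in 7.72% of windows, and 0.518% of windows hold at least 2, a cut taken from the claudin windows too. Among the claudins the CLDN4 window held 2 and 1 CLDN2 window held 1, with none in CLDN7, CLDN12 or CLDN18. The CLDN4 matches are shown on the plus strand, beginning at -242 and -161 from the start (73830996). All 300 bases of this window lie within annotated exons, so both matches do too. The CLDN4 entry itself begins further upstream, at 73799542, where no window was read.

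CLDN4, chr7:73830746-73830770: ctgggctgTGATTCAgtgtctgtct
CLDN4, chr7:73830825-73830851: gactggatagTGACTCAgggacccggg

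AACCGGTT, a site of grainyhead-like factors, occurs in 0.132% of windows and in none of the claudin windows. CLDN18 has a window for each of its first exons, and the stretches before any annotated exon are shown for both on the plus strand, since the counts cannot tell the starts apart. The outer start (137998816) has the CAGGTG match, in capitals at -99, and the inner start (138010165) has no match to any of the 3 motifs.

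CLDN18 outer start, chr3:137998566-137998734: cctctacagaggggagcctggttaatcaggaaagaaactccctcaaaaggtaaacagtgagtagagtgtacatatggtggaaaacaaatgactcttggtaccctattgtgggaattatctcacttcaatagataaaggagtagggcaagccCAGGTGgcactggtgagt
CLDN18 inner start, chr3:138009915-138009999: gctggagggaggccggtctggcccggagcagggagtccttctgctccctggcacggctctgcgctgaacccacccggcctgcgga

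Other genes of the claudin family were listed apart from the members. Of the 14 other claudin genes, 6 were tested and none was called by edgeR, with 1 at an unadjusted p under 0.05 and none called by DESeq2 or limma-voom. That gene was CLDN5, the claudin of endothelium, at a log2 fold change of 1.03 (edgeR, adjusted p = 0.0568), and CLDN20 had the next smallest p, at 0.38 (edgeR, adjusted p = 0.110). CLDN20 was at 1.32 ± 0.0345 CPM per kb in WT and 1.73 ± 0.231 CPM per kb with the siRNA (SD, n = 3), between CLDN12 and CLDN7 in WT and overlapping CLDN12 in siSRSF2 libraries. The 8 not tested had at most 6 counts in any library, and 4 of the 14 had 0 counts in all 6. The median log2 fold change of the 6 tested was 0.25, against 0.02 over all genes tested.

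Transcripts of the genes whose proteins work with claudins changed in both directions. Of 34 tight junction partner genes, 14 were higher, 8 lower, 6 not called and 6 not tested, with a median log2 fold change of 0.21. The share called, 22 of 28 tested, stands beside 59.1% of all genes. By the rule for named genes the list gave PATJ, a scaffold of the Crumbs polarity complex, which went from 17.5 ± 1.27 to 46.3 ± 1.58 CPM (log2 fold change 1.40). ARHGEF2, a junction-bound exchange factor for RhoA, went from 22.4 ± 0.684 to 51.7 ± 1.54 CPM (1.2), and F11R, which encodes the junctional adhesion molecule JAM-A, from 7.12 ± 0.451 to 19.8 ± 1.03 CPM (1.48). MAGI3, another scaffold, went from 21.2 ± 0.931 to 36.3 ± 2.62 CPM (0.77). AMOTL2, of the angiomotin family, went from 46.1 ± 0.840 to 22.6 ± 0.414 CPM (-1.03) and LIN7C, a polarity adaptor, from 33.0 ± 1.22 to 17.1 ± 2.13 CPM (-0.95). Errors are SD with n = 3, and all 6 passed the edgeR threshold.

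TJP1 and TJP3, scaffolds that bind claudin tails, and occludin were added after their values were seen. TJP1 fell from 239 ± 6.93 to 196 ± 5.67 CPM, a log2 fold change of -0.29 (edgeR, adjusted p = 3.03e-06), and did not pass a test against a fold of 1.2 (adjusted p = 0.210). TJP3, which binds the same partners in epithelia, rose from 0.514 ± 0.311 to 6.16 ± 0.635 CPM, a log2 fold change of 3.56 (edgeR, adjusted p = 6.14e-10). OCLN, which encodes the tight junction protein occludin, rose from 1.28 ± 0.229 to 3.17 ± 0.289 CPM, a log2 fold change of 1.30 (edgeR, adjusted p = 1.96e-06). Errors are SD with n = 3.

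Genes described as regulators of claudins were also mixed. Of 32, 8 were higher, 7 lower, 13 not called and 4 not tested, with a median log2 fold change of 0.21, and 15 of 28 tested were called, beside 59.1% of all genes. ELF3, an epithelial ETS factor known to act on the CLDN7 promoter, rose from 8.37 ± 1.47 to 51.4 ± 1.46 CPM (log2 fold change 2.62). EPHA2, a receptor kinase that phosphorylates CLDN4, fell from 37.8 ± 1.94 to 6.29 ± 0.749 CPM (-2.59). SP1, a factor of many GC-rich promoters including those of claudins, rose from 117 ± 1.43 to 213 ± 11.8 CPM (0.86), GRHL1 from 3.77 ± 0.398 to 9.21 ± 1.44 CPM (1.29) and KLF5 from 45.2 ± 1.25 to 64.2 ± 2.72 CPM (0.51). LNX1, a ubiquitin ligase that removes claudins from junctions, fell from 44.4 ± 1.68 to 27.5 ± 3.53 CPM (-0.70). Errors are SD with n = 3, and all 6 passed the edgeR threshold.

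**Figure D4:**
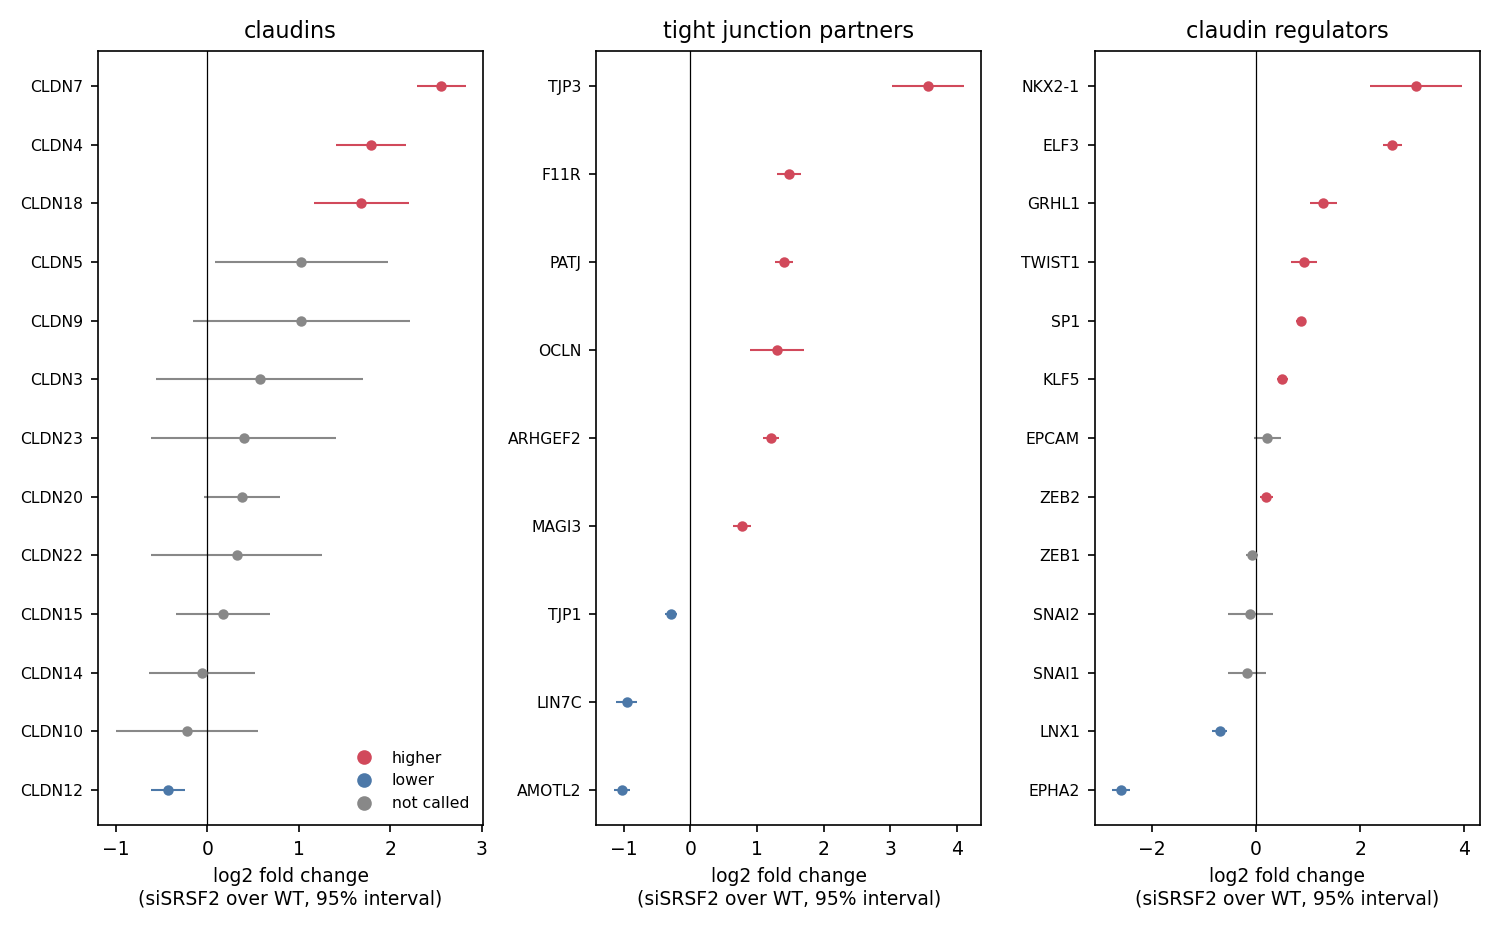
Log2 fold change of siSRSF2 over WT with its 95% interval, which is not adjusted for the number of genes, for the tested claudins (left) and for the tight junction partners (middle) and claudin regulators (right) named in the text. Red genes passed the threshold as higher, blue as lower and grey did not pass; CLDN7, CLDN4 and CLDN18 are the red claudins and CLDN12 the blue one, and both other panels hold red and blue genes.

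The remaining regulators named here were chosen for their known binding, after their values were seen. EPCAM, the partner of CLDN7, was at 5.00 ± 0.50 CPM in WT and 5.80 ± 0.436 CPM with the siRNA (SD, n = 3, log2 fold change 0.22, edgeR adjusted p = 0.143). Of the E-box repressors, SNAI1, SNAI2 and ZEB1 had log2 fold changes of -0.18, -0.11 and -0.08 and were not called (edgeR, adjusted p = 0.407, 0.686 and 0.205). ZEB2 had a log2 fold change of 0.20 (edgeR, adjusted p = 0.00436) and TWIST1 of 0.92 (edgeR, adjusted p = 1.61e-07). NKX2-1, the lung factor that acts on the lung start of CLDN18, rose from 0.114 ± 0.0261 to 0.980 ± 0.126 CPM (SD, n = 3), a log2 fold change of 3.08 (edgeR, adjusted p = 6.66e-07).

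Genes with a pattern most like that of a claudin over the 6 libraries were found by the root mean square difference of centred log2 CPM. For CLDN7 the closest of 17140 genes were PGPEP1 at 0.0569, ZNF395 at 0.0720 and PIM1 at 0.0824. For CLDN12 the closest of 17139 were RPS6KL1 at 0.0206, VOPP1 at 0.0259 and PREP at 0.0359. Since the 6 libraries form 2 groups, any genes with a like difference between the groups score as alike.

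Markers of other cell types moved as well, and their part in the claudin results was not tested. The summed level of 7 fibroblast markers was 22.6 to 23.1 CPM in WT and 51.4 to 57.2 CPM in siSRSF2 libraries, with 5 of 7 higher and PDGFRA, a defining gene, at 0.115 CPM or less. The 8 leukocyte markers summed to 25.0 to 27.1 CPM and 34.5 to 38.2 CPM, with 1 of 8 higher and PTPRC and CD3E at 0.259 CPM or less. The 6 endothelial markers, which include CLDN5, summed to 3.46 to 3.71 CPM and 1.58 to 2.66 CPM, with 2 of 6 lower. The 6 epithelial markers summed to 5046 to 5477 CPM and 3990.0 to 4279 CPM, with KRT8 and KRT7 lower and none higher. The 11 gastric markers summed to 23.4 to 27.1 CPM and 58.0 to 64.3 CPM, with MUC1 and GATA6 higher and MUC6 lower. In these bulk libraries, more cells with a claudin and more of its RNA per cell cannot be told apart.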

How the data were processed

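Per the labels' protocols, SMARTER mRNA-Seq libraries were made from RNA of AGS cells. The deposited values are the authors' raw counts per gene, not normalized. HISAT2 2.0.5 and featureCounts 1.5.0-p3 are named in the submitters' processing notes, as is the mouse build mm10, although the deposited table holds human genes and positions. All 10 claudin entries have the positions of GENCODE release 29 (GRCh38), which is used here. No source used here gives the settings for strand, pairs and multiple matches. Of entries with few counts (1 to 20), 75.8% to 79.1% had an even count in each library, against 51.4% to 51.9% at 200 counts or more. Low counts may therefore not be independent reads. The share at 200 counts or more does not show that high counts are independent either.

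The tests used edgeR 4.0.16 in R 4.3.3: filterByExpr (minimum count 10), TMM scaling, and the robust quasi-likelihood F test with group as the only term. P-values were Benjamini-Hochberg adjusted over all 23689 genes tested, at 0.05. The fit's common biological coefficient of variation came to 6.27%. Intervals are at 95%. CPM use TMM-scaled library sizes. Length is the entry's merged exon length as deposited. Ratios had 0.5 added to each count. Shares and ratios were compared by exact permutation. Replicates of a group differed by 3.83 to 8.75 in chi-square per gene, above sampling noise, so none was treated as a repeat. The scripts were tested on simulated data.

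The members and lists were chosen with earlier results of these data known. Lists held 14 other claudins, 34 tight junction partners, 32 regulators and markers of 5 kinds; a few list genes are counted but not reported by name here. Named genes were SRSF2, the 10 members, every gene sharing exon positions with one, and from each list up to 6 called genes with the smallest p, or up to 2 where none was called. For the claudins with the largest rise and fall, the 3 genes of the most alike profile with a mean of at least 1 CPM were added. Alternatives were DESeq2 1.42.0, limma-voom 3.58.1, other scalings and filters, a fold threshold, halved counts, other lengths, a replicate block and leaving out each library.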

Additional observations from a re-analysis of the deposited data

How the results depend on the processing

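The calls of CLDN7, CLDN4, CLDN18 and CLDN12 kept their sign and threshold under DESeq2, limma-voom, RLE factors, scaling by library totals, no filter, a mean of at least 1 CPM, a non-robust fit, a 1.2-fold threshold, halved counts, a replicate block and each library left out. Their log2 fold changes ranged from 2.48 to 2.69, 1.62 to 1.95, 1.5 to 1.90 and -0.53 to -0.30. CLDN3, CLDN9 and CLDN23 were uncalled wherever they were tested, at 0.10 to 0.82, 0.55 to 1.44 and -0.03 to 0.85. They did not pass the filter at a mean of 1 CPM or with halved counts, nor did CLDN3 without WT replicate 2. Leaving out 1 library gave 12966 to 13841 called genes, 22 to 25 called partners, 14 to 16 called regulators and 0 other claudins. With group means removed, same-numbered libraries correlated at 0.04, -0.08 and -0.05. These values gave no sign of pairing by number, but 3 libraries per group cannot settle whether the numbers pair them. With the replicate block 4 members, 22 partners, 15 regulators and 13697 genes were called. DESeq2 called 12470 genes. Scaling by library totals moved the median of all genes from 0.02 to 0.15, split the calls 8560 higher to 5492 lower, called 2 other claudins (CLDN5 and CLDN20) and EPCAM, and ended the calls of RP1-4G17.5 and RPS6KL1. The 1.2-fold threshold ended those of TJP1, ZEB2, RP1-4G17.5 and RPS6KL1. It left 18 called partners, 13 called regulators and 10510 called genes, so further list genes lost their calls. Without siSRSF2 replicate 1 RPS6KL1 lost its call at -0.36 and ZEB1 gained one at -0.13, and without WT replicate 1 CTB-13L3.1 gained one at -0.65. The difference in share (siSRSF2 minus WT, percentage points) was 33.2 for CLDN7, -36.3 for CLDN12 and 5.37 for CLDN4. By raw counts these were 25.3, -37.9 and 9.38, with 4.06 against 2.65 for CLDN18, and CLDN12 gave -39.5 with the longest coding transcript as length and -38.2 without CLDN6 and CLDN9, since shares depend on the lengths and members that enter them. Leaving out 1 library gave 30.2 to 35.2 for CLDN7, -36.9 to -35.9 for CLDN12, 4.37 to 6.30 for CLDN4 and 1.81 to 3.68 for CLDN18. The CLDN3 to CLDN4 and CLDN6 to CLDN9 log2 ratio differences were -1.79 to -0.70 and -4.13 to -0.92. The depth limits what can be said of the 6 low members.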
